A study of Homo sapiens with 6 samples.

Results

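Kinesins are motor proteins that use ATP to walk along microtubules or to take microtubules apart. One set of them builds the mitotic spindle, moves chromosomes and divides the cell, and is made mainly in dividing cells. Another set carries vesicles, mitochondria and endosomes and is made in resting cells too. The members described here are all genes whose symbol in the array's annotation is KIF followed by a number and any letter, or KIFC followed by a number, and that have a probe set naming that gene alone. These were 41 of 19775 genes, read by 85 probe sets. They were sorted by textbook role into 13 mitotic kinesins, 15 cargo kinesins and 13 others, which act in cilia, regulate microtubules or have roles that are less settled. CENPE, a kinesin of the kinetochore, has a symbol outside this naming rule and is given with the spindle partners.

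The cells were LNCaP, an established androgen-responsive line grown from a lymph node metastasis of a human prostate cancer. Cultures were kept for 3 days in RPMI without phenol red and with a 10% supplement that the labels name only as charcoal/dextran, a treatment used to strip steroids from serum. The DHT group of 3 cultures then received 100 nM dihydrotestosterone, an androgen made from testosterone, for 48 h, and the control group of 3 cultures was not labelled as treated. Whether the controls received a vehicle, or were harvested at the same time as the DHT cultures, was not stated in those labels. Each culture was read on 1 Affymetrix array. The cultures are named biological replicates in the labels, without a statement that they were grown apart. The p-values therefore measure the spread between these 6 arrays. In limma the variance of a gene is in part shared with genes of like signal. The comparison asked how kinesin transcripts stood after an androgen was added for this time.

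The values are MAS5 signals on a linear scale, already brought to a common array level by the authors. The median signal of an array was 27.9 to 30.1 with DHT and 25.7 to 30.0 in the controls. Of 9 listed prostate luminal markers 2 were not analysed here, and the other 7 all passed the limit for testing, with summed signals of 17884 to 18953 with DHT and 7423 to 7922 in the controls. Of these 7, 4 rose, among them the androgen-induced KLK3, KLK2 and TMPRSS2, and HOXB13 and KRT8 fell. Of 2 basal epithelial markers analysed 0 passed that limit, at sums of 21.7 to 30.7 with DHT and 6.23 to 21.7 in the controls. The 9 stromal, endothelial and immune markers summed to signals of 485 to 629 with DHT and 571 to 590 in the controls. Of these 9, 7 passed the limit for testing, of which 0 rose and 1 fell. The fall was COL1A1, at a mean of 132 with DHT and 198 in the controls (limma adjusted p = 0.0176). The 3′ over 5′ signal of the ACTB control probe sets, a ratio that rises when RNA or labelled product is shorter, was 1.77 ± 0.07 with DHT and 1.37 ± 0.05 in the controls (SD, n = 3 each; two-sided exact permutation p = 0.1, the smallest that 3 against 3 arrays can give). For GAPDH the ratio was 1.06 ± 0.05 with DHT and 0.904 ± 0.044 in the controls (exact permutation p = 0.1). These ratios moved with the treatment, and their part in the kinesin results was not tested.

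Cell-cycle promoters of the mitotic kind often carry a CHR element, the letters TTTGAA near the start site, which is bound by the DREAM and MuvB complexes, and a CCAAT box, bound by NF-Y. The windows below are shown because they belong to the 4 mitotic kinesins with the smallest adjusted p and to the cargo kinesin with the smallest. Each runs 5′ to 3′ on the strand of its gene from 250 bases before to 50 bases after the start annotated in RefSeq (build GRCh38.p14), and the capitals mark TTTGAA or CCAAT on either strand, so that TTCAAA and ATTGG are the same letters read on the other strand. KIF20A lies at chr5:138178862-138179161, plus strand, KIF2C at chr1:44739587-44739886, plus strand, KIF18B at chr17:44947724-44948023, minus strand, KIF14 at chr1:200620702-200621001, minus strand and KIF5B at chr10:32056376-32056675, minus strand.
KIF20A: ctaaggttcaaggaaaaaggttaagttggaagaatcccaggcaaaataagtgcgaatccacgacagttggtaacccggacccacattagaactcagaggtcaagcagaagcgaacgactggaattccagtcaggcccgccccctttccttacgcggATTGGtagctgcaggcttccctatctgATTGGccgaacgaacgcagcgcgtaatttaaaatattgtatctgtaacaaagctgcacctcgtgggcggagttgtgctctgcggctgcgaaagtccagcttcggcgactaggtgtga
KIF2C: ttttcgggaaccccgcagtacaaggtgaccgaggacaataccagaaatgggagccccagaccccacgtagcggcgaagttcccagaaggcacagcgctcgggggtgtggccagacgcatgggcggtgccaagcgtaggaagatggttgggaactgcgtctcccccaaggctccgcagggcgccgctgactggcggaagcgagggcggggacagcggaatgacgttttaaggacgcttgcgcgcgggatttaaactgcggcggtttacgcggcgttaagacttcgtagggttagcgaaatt
KIF18B: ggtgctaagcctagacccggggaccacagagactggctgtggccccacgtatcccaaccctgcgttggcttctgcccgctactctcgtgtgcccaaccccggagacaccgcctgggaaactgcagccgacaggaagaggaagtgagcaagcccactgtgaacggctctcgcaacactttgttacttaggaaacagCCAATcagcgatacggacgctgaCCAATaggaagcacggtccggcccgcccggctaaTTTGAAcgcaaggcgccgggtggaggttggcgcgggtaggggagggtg
KIF14: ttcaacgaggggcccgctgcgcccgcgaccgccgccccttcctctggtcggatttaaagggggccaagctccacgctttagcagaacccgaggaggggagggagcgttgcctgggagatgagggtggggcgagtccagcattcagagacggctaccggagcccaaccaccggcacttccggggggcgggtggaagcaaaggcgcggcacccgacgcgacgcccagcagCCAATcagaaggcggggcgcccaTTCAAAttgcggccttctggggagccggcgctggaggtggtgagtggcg
KIF5B: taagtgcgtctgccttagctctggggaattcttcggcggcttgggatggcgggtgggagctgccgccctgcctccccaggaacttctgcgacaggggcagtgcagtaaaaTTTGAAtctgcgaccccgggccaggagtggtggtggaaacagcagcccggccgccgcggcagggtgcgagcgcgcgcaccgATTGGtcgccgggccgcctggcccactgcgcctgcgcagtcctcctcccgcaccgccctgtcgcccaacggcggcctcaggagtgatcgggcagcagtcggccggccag

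In these windows KIF18B has a pair of CCAAT boxes followed by TTTGAA, KIF14 has 1 of each, KIF20A has CCAAT boxes and no TTTGAA, and KIF2C has neither. Other spellings of the CHR were not searched, so a window without TTTGAA may still hold one. The RefSeq table held 42 windows for 33 of the 41 kinesin genes. The CHR letters were found for 9 of 13 mitotic kinesins, against 15.2% of all 35116 windows. They were found for 1 of 11 cargo kinesins, KIF5B, and for 0 of 9 other kinesins. The CCAAT letters were found for 10 of 13 mitotic, 4 of 11 cargo and 3 of 9 other kinesins, against 34.6% of all windows. Both were found for 8 mitotic kinesins and 1 cargo kinesin, against 5.9% of all windows. The centres of the CHR letters of mitotic kinesins lay between 52 bases before and 33 bases after the start, and those of KIF5B 137 bases before it. In the 8 mitotic kinesins with both, the CHR centre lay 9.5 to 122.5 bases after the nearest CCAAT centre before it (9.5 in KIF23, 24.5 in KIF4A, 25.5 in KIF11 and 122.5 in KIF20B). The letters TTCCCGC, a form of the E2F site, were found for 0 of 13 mitotic and 2 of 11 cargo kinesins (6.55% of all windows). The letters AGAACA, one arm of the androgen response element, were found for 1 of 13 mitotic and 2 of 11 cargo kinesins (14.8% of all windows), the mitotic one being KIF2B. A match is a description of letters and not a bound site, and genes with several annotated starts were counted once if any window matched.

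**Figure D1:**
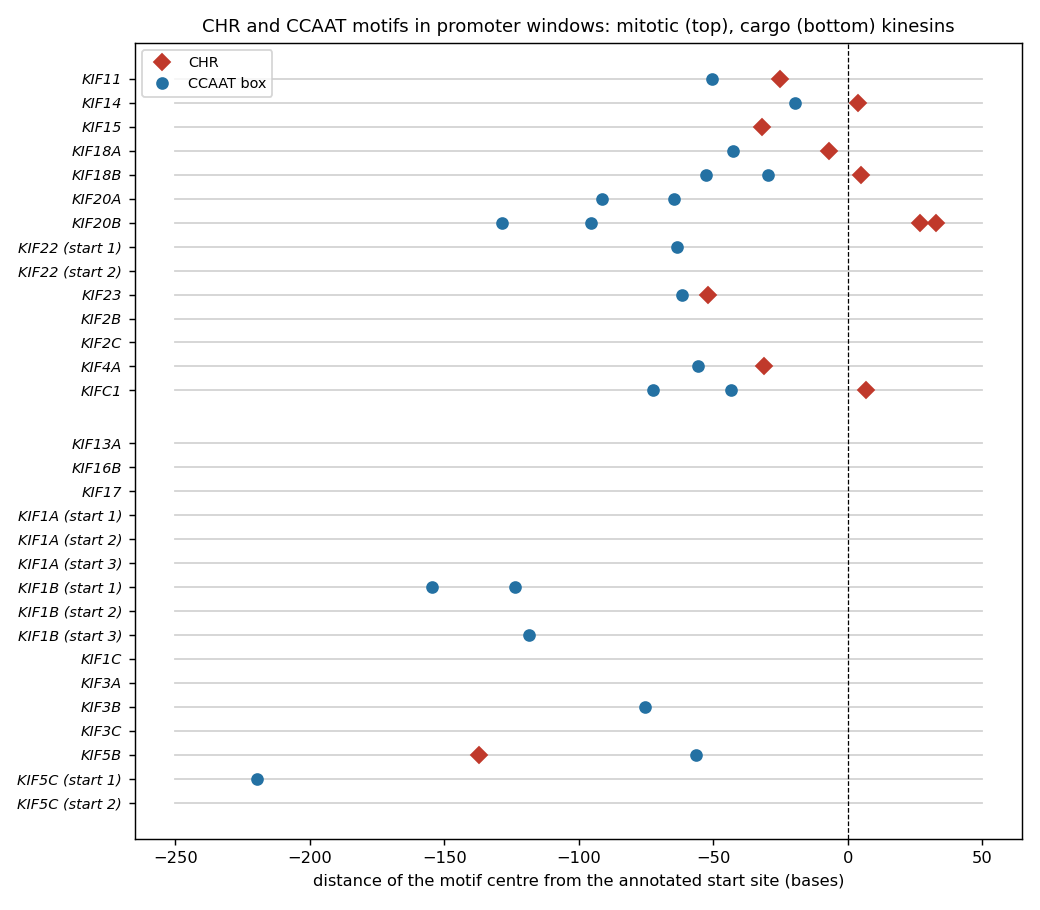
Positions of CHR (diamonds) and CCAAT (circles) letters, either strand, in the RefSeq windows of 13 mitotic kinesins (upper rows) and 11 cargo kinesins (lower rows), with the distance of the motif centre from the annotated start site in bases on the horizontal axis. CHR letters lie between -52 and 33 in the mitotic rows, and the 1 cargo match, in KIF5B, lies at -137.

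Mitotic kinesins were higher with DHT and cargo kinesins went both ways. Of 12 tested mitotic kinesins, 9 rose and 0 fell in limma at an adjusted p under 0.05. Among these 9, KIF23 passed the limit for testing through its DHT arrays, with a control mean of 16.5 under the limit of 17.3. KIF23 also counts in the class medians and array comparisons below. Of all 14269 genes tested, 7.09% were called higher and 6.05% lower. Of 13 tested cargo kinesins, 3 rose and 3 fell. Of 6 other kinesins tested, 0 rose and 0 fell. The median log2 fold change was 0.83 over the tested mitotic kinesins, -0.03 over the cargo kinesins and 0.15 over the others, against 0.02 over all genes tested. Log2 fold changes here are of the signal plus 16, a scale that understates the change of dim genes. With dim members included, the medians were 0.79 over all 13 mitotic kinesins and 0.04 over all 15 cargo kinesins.

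The 3 DHT arrays lay above the 3 control arrays for 10 of 12 tested mitotic kinesins, against 16.9% of all genes tested, and below them for 0. For cargo kinesins they lay above for 4 of 13 and below for 4, against 16.9% and 14% of all genes. Averaged over the 12 tested mitotic kinesins, the log2 signal of an array minus the mean of the controls was 0.93, 0.78 and 0.69 on the DHT arrays and 0.20, -0.14 and -0.07 on the control arrays. The groups did not overlap in this average. The cargo average was 0.0023, -0.21 and -0.12 on the DHT arrays and between -0.03 and 0.03 on the control arrays, and there the groups overlapped. More dividing cells and more mitotic RNA per cell cannot be told apart in such bulk samples. Each array was scaled to 1 common level, so a direction is that of a gene against the bulk of its array. With the signal scaled to the hybridisation spikes instead, the median over all genes was -0.45, with 140 genes called higher and 7571 lower. Of the 12 mitotic kinesins 4 then rose and 0 fell, and KIF20B and KIF22 turned negative. Of the 13 cargo kinesins 0 rose and 8 fell, where most calls over all genes were falls too.

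**Figure D2:**
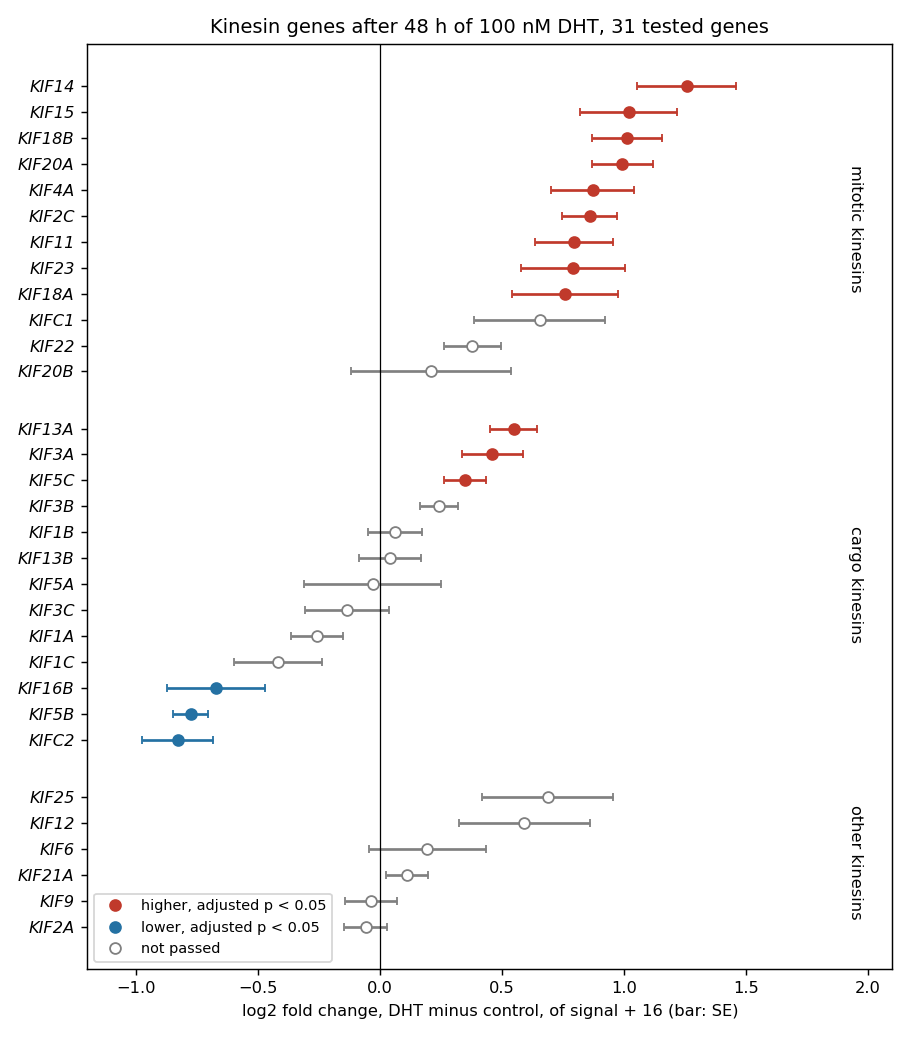
Log2 fold change of signal plus 16, DHT minus control, with its standard error, for the 31 tested kinesin genes, grouped as mitotic, cargo and other; filled points passed an adjusted p of 0.05 in limma (3 arrays per group). All 12 mitotic genes lie above 0, between 0.21 and 1.26, while the 13 cargo genes run from -0.83 to 0.55. KIF2A, grouped here with the others, lies at -0.06. With spike scaling 10 of the 12 mitotic genes (not KIF20B and KIF22), 1 of the 13 cargo genes and 2 of the 6 other genes lie above 0.

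Of the motors that set up spindle poles, KIF11 and KIF15 rose and KIFC1 did not pass. KIF11, also called Eg5, slides antiparallel microtubules and pushes the spindle poles apart. Its signal was 119.7, 86.8 and 92.2 with DHT, against 49.3, 44.2 and 57.6 in the controls, and the log2 fold change was 0.79 ± 0.16 (SE, 3 arrays per group; limma adjusted p = 0.00727). KIF15, a kinesin that can keep spindles bipolar together with KIF11, had signals of 59.7, 75.1 and 86.5 with DHT and 35.8, 20.2 and 29.3 in the controls. The lowest DHT array stood clear of the highest control array for both genes. KIF15 rose 2.60-fold in mean signal, or 1.02 ± 0.20 on the log2 scale (limma adjusted p = 0.00599). KIFC1, a motor that walks the other way along microtubules and clusters extra centrosomes, had 98.3, 120.8 and 73.9 with DHT and 85.9, 28.4 and 63.7 in the controls. Control replicate 1 lay above DHT replicate 3, and KIFC1 did not pass (0.65, with a 95% interval of 0.07 to 1.24; limma adjusted p = 0.145).

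Of the motors described as acting on chromosomes and astral microtubules, KIF2C, KIF18A and KIF18B rose and KIF22 did not pass. KIF2C, or MCAK, takes microtubules apart at centromeres and so corrects wrong attachments. It had 221, 195 and 195 with DHT, against 100.6, 98.1 and 117 in the controls, and its log2 fold change was 0.86 ± 0.11 (limma adjusted p = 0.000542). A second KIF2C probe set also passed, at 0.57. KIF18A, which dampens the swinging of chromosomes before anaphase, had 45.6, 43.7 and 48.7 with DHT and 21.9, 28.5 and 13.2 in the controls. The groups did not overlap, and the log2 fold change was 0.76 ± 0.22 (limma adjusted p = 0.0391). KIF18A passed in 1 of the 6 fits that left out an array, with adjusted p between 0.0312 and 0.131. KIF18B, its relative that shortens astral microtubules, had 144, 115 and 146 with DHT and 57.6, 66.2 and 52.0 in the controls, a rise of 1.01 ± 0.14 (limma adjusted p = 0.000859). KIF22, a chromokinesin that pushes chromosome arms away from the poles, had 172, 150.2 and 139.8 with DHT and 124, 111 and 109 in the controls. Its groups stood apart, but by a smaller distance, and it did not pass (0.38, 95% interval 0.12 to 0.63; limma adjusted p = 0.0545).

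The motors of the central spindle and of cytokinesis included the gene with the highest log2 fold change among the 31 tested kinesins. KIF14, which binds PRC1 and citron kinase and works at the midbody, had 158.5, 147 and 151 with DHT, against 87.0, 42.7 and 41.4 in the controls, of which replicate 1 was the highest. KIF14 rose 2.67-fold in mean signal (log2 fold change 1.26 ± 0.20; limma adjusted p = 0.00202), and its second probe set rose by 0.72. KIF20A, or MKLP2, brings the chromosomal passenger complex to the central spindle. It had 251, 209 and 193 with DHT, against 110.4, 90.9 and 102 in the controls, a difference of 0.99 ± 0.12 on the log2 scale (limma adjusted p = 0.000443). KIF4A, a chromokinesin that sets the length of the central spindle with PRC1, had 186, 114 and 124 with DHT and 77.3, 65.6 and 62.9 in the controls. KIF4A rose 2.06-fold in mean signal (log2 fold change 0.87 ± 0.17, limma adjusted p = 0.00594), with the higher spread on the DHT side.

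KIF23, or MKLP1, forms the centralspindlin complex with RACGAP1. It was dim, with 48.7, 37.4 and 35.3 in DHT cultures and 19.5, 14.9 and 15.2 in the controls, whose mean of 16.5 lies below the signal of 17.3 used as the limit for testing, so that it passed that limit through the DHT arrays. It rose by 0.79 ± 0.21 (limma adjusted p = 0.0315), and passed in 0 of the 6 fits that left out an array (adjusted p between 0.0531 and 0.118). KIF20B, or MPP1, which acts late in cytokinesis, had 85.7, 81.4 and 30.9 with DHT and 91.3, 36.6 and 37.4 in the controls. Both groups held high and low arrays, and the log2 fold change of 0.21 had a 95% interval of -0.51 to 0.93 (limma adjusted p = 0.749). The remaining mitotic member, KIF2B, was below the limit, with 2.82, 6.01 and 2.35 with DHT and 1.48, 1.97 and 1.10 in the controls, and was not tested.

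**Figure D3:**
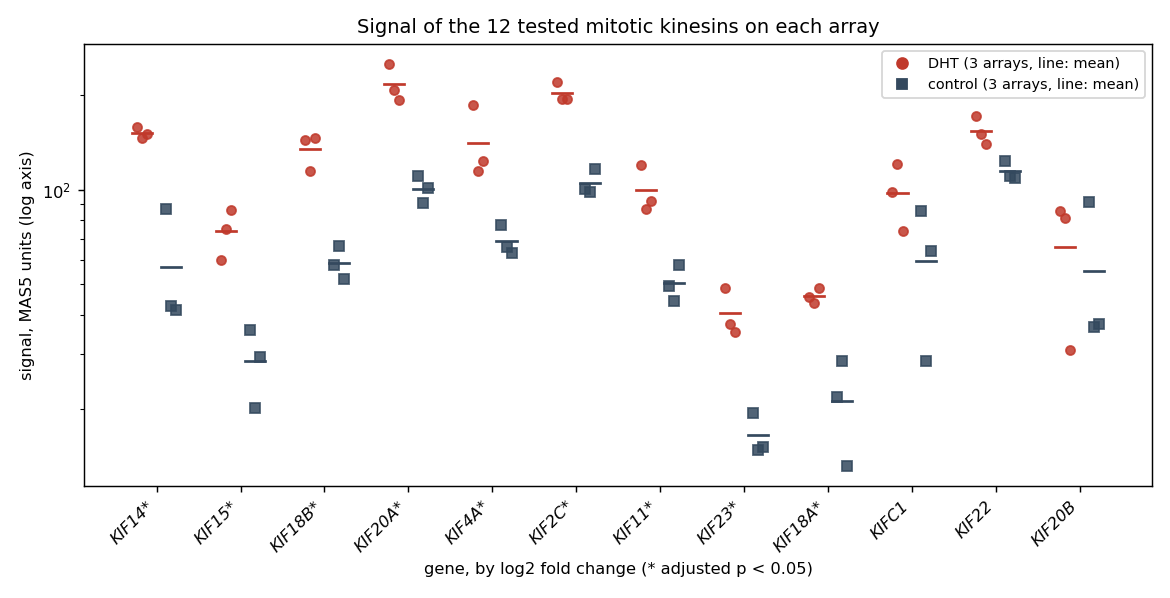
MAS5 signal (log axis) of the 12 tested mitotic kinesins on each of 3 DHT arrays (circles, left) and 3 control arrays (squares, right), with lines at the group means and a star for an adjusted p under 0.05. For 10 of the 12 genes the DHT points lie above all control points, and KIFC1 and KIF20B overlap.

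Among the cargo motors, the heavy chains of conventional kinesin split. KIF5B is the widely made heavy chain that carries mitochondria, lysosomes and secretory vesicles. Its signal was 1614, 1678 and 1610.5 with DHT, against 2614, 3019 and 2807 in the controls, and the groups lay far apart. KIF5B fell to a mean of 1634 ± 38.0 with DHT, against 2814 ± 203 in the controls (SD, n = 3 each), or -0.78 ± 0.07 on the log2 scale (SE; limma adjusted p = 5.42e-05). Its 2 other probe sets fell too, at -0.82 and -0.37. KIF5C, a heavy chain best known from neurons, had 331, 333 and 317 with DHT, against 249, 238 and 273 in the controls. It rose by 0.35 ± 0.09 (limma adjusted p = 0.0204), and its second probe set rose by 0.62. KIF5C turned to -0.17 with spike scaling and passed in 2 of the 6 fits that left out an array. The other neuronal heavy chain, KIF5A, was low and scattered, between 28.8 and 79.2 with DHT and between 33.7 and 60.9 in the controls, at -0.03.

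The other falls were KIFC2 and KIF16B. KIFC2, a motor related to KIFC1 and studied mainly in mouse neurons, had 317, 185 and 239 with DHT, against 434, 447 and 444 in the controls. The controls agreed closely and the DHT arrays lay apart from each other but all below them, at -0.83 ± 0.15 on the log2 scale (limma adjusted p = 0.00351). Its second probe set had -0.09 and did not pass. KIF16B, which moves early endosomes outward and binds their lipids, had 25.3, 31.8 and 19.1 with DHT, against 50.9, 56.4 and 41.9 in the controls. KIF16B fell by 0.67 on the log2 scale (limma adjusted p = 0.0493), but it passed in 0 of the 6 fits that left out an array (adjusted p between 0.0539 and 0.1415).

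Kinesin-2 and kinesin-3 motors gave the remaining rises. KIF13A, which carries mannose 6-phosphate receptors and recycling endosomes, had 343, 280.4 and 332 with DHT, against 218, 205 and 214 in the controls (0.55 ± 0.10; limma adjusted p = 0.00358). None of its 5 other tested probe sets passed, and they ran from -0.39 to 0.57. Averaged over all of them, KIF13A had 0.12 and did not pass (limma adjusted p = 0.72). KIF3A, a motor subunit of the kinesin-2 complex that serves cilia and vesicles, had 223, 227 and 250.3 with DHT and 177, 134 and 189 in the controls. It rose by 0.46 ± 0.12 (limma adjusted p = 0.0316), passed in 2 of the 6 fits that left out an array, and turned to -0.05 with spike scaling. Its partner subunit KIF3B had 783, 724 and 784 with DHT and 595, 652 and 687 in the controls. KIF3B did not pass, at 0.24 (limma adjusted p = 0.0638), and its second probe set had -0.13.

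Of the cargo kinesins that did not pass, KIF1A, a carrier of synaptic vesicle precursors, had 326, 272 and 249 with DHT and 366, 337 and 315 in the controls. These groups overlapped, and KIF1A stood at -0.26 (limma adjusted p = 0.146). KIF1C had 101, 92.8 and 58.5 with DHT and 136, 105 and 107 in the controls, at -0.42 with a 95% interval of -0.81 to -0.03 (limma adjusted p = 0.162). Its second tested probe set had 0.42, so that its probe sets differed in sign. KIF3C, a kinesin-2 motor of neurons, had 165, 126 and 218 with DHT and 160.1, 223 and 175 in the controls, at -0.14 (limma adjusted p = 0.677). KIF1B, which carries mitochondria and vesicles, had 0.06 in the probe set read here, while a dimmer one rose by 0.55 (limma adjusted p = 0.0181 over probe sets). KIF13B had 0.04. KIF17 and KIFC3 were below the limit and were not tested.

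**Figure D4:**
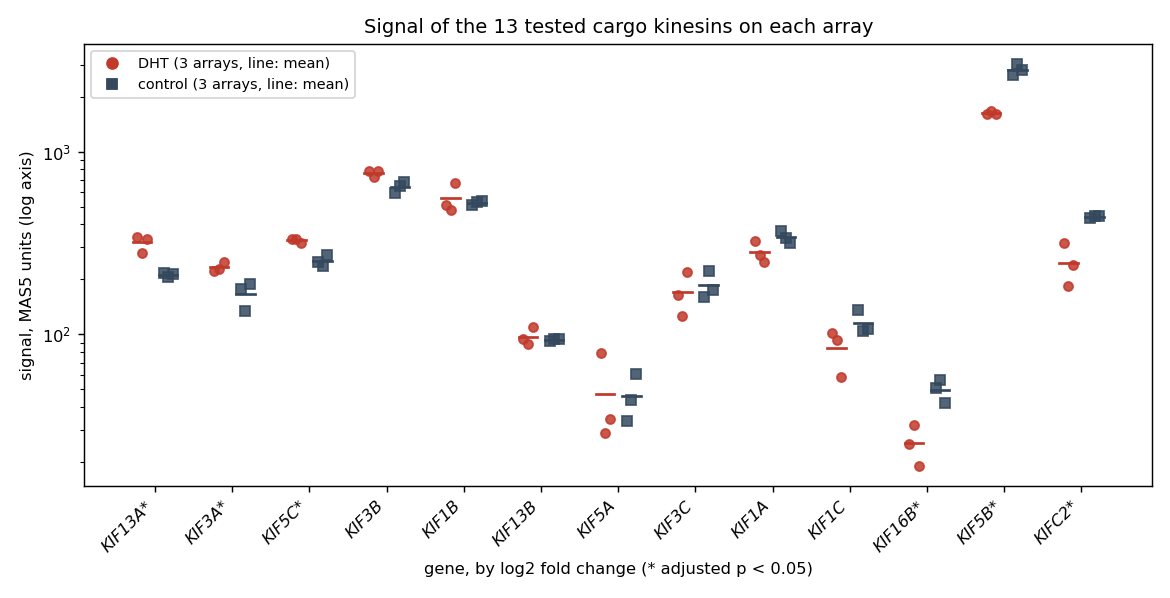
MAS5 signal (log axis) of the 13 tested cargo kinesins on each of 3 DHT arrays (circles, left) and 3 control arrays (squares, right), with lines at the group means and a star for an adjusted p under 0.05. KIF5B, KIFC2 and KIF16B lie lower and KIF13A, KIF3A and KIF5C higher with DHT; with spike scaling KIF3A and KIF5C turn negative and KIF13A stands at 0.03.

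No other kinesin passed. KIF25 had 25.2, 32.7 and 25.4 with DHT and 7.03, 21.2 and 7.25 in the controls, which did not overlap, at 0.69 (limma adjusted p = 0.128). The control mean of 11.8 lies below the limit for testing, so that KIF25 passed that limit through the DHT arrays. KIF25 and KIF9 were read from probe sets whose suffix warns of cross-hybridisation, since those without it were below the limit. Read from the probe set without it, KIF25 had 0.028, and KIF9 had signals of 5.38, 3.90 and 3.63 with DHT and 22.6, 24.6 and 4.44 in the controls. KIF12 had 47.3, 37.1 and 48.7 with DHT and 22.4, 43.4 and 11.8 in the controls, where control replicate 2 overlapped the DHT arrays (0.59; limma adjusted p = 0.189). KIF21A, which restrains microtubule growth, had 275, 289.9 and 264 with DHT and 239.5, 265 and 260.2 in the controls, at 0.11. KIF6 had 29.7, 34.3 and 42.9 with DHT and 16.8, 38.7 and 34.6 in the controls, at 0.19. KIF9 had -0.04. KIF2A, a relative of KIF2C that takes microtubules apart in interphase as well, had 309, 311 and 294 with DHT and 348, 294 and 314 in the controls, at -0.06 with a 95% interval of -0.25 to 0.13.

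In all, 10 kinesins were below the limit, with single values between 0.850 and 37.3. KIF24, a centriolar kinesin that takes microtubules apart, was among them, with 6.92, 7.94 and 5.98 with DHT and 2.13, 1.42 and 0.850 in the controls. Its DHT arrays lay above the control arrays, at signals below the limit. The others below the limit outside the mitotic and cargo classes were KIF7, KIF19, KIF21B, KIF26A, KIF26B and KIF27.

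The probe sets of a gene were compared for the 19 kinesins with more than 1 tested probe set. In 9 of them all tested probe sets lay on 1 side of 0, and in 10 they lay on both. Of the 29 tested probe sets that were not read for a gene, 4 were called higher and 2 lower, against 5.09% and 5.25% of all 32768 probe sets tested. The 4 belonged to KIF14, KIF2C, KIF5C and KIF1B, and the 2 to KIF5B. Of the 9 mitotic kinesins that rose, KIF14 and KIF2C had a second tested probe set, and the other 7 rest on 1 each. Where the probe sets lie along their transcripts was not analysed here.

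**Figure D5:**
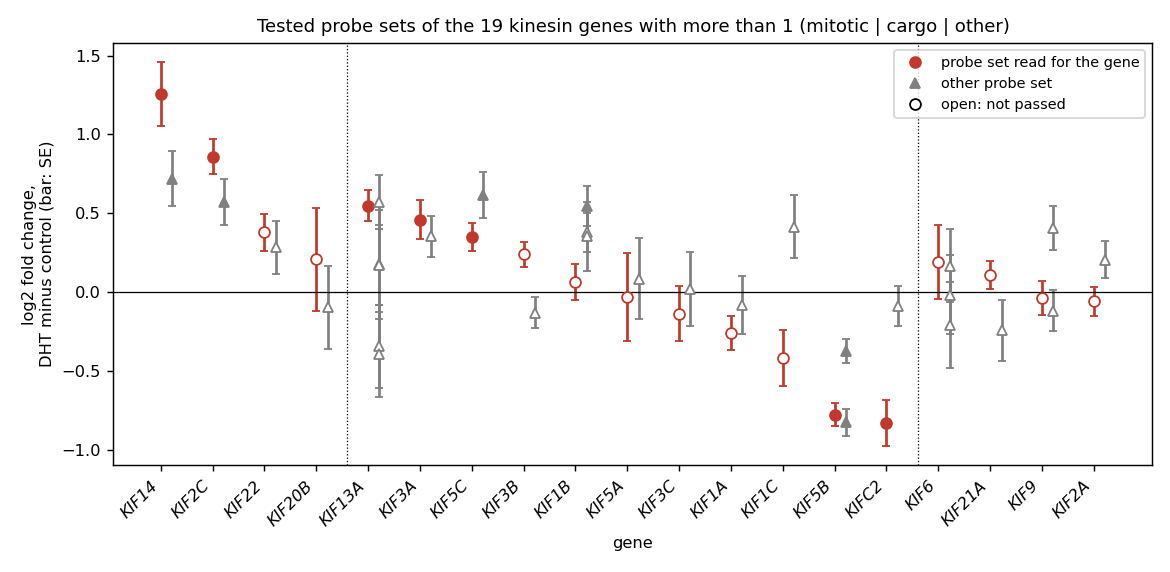
Log2 fold change of signal plus 16, DHT minus control, with its standard error, of every tested probe set of the 19 kinesins that have more than 1; circles are the probe sets read for the gene, triangles the others, and filled symbols passed an adjusted p of 0.05 over probe sets. KIF14, KIF2C, KIF5C and KIF5B have further probe sets that passed in the same direction, while those of KIF13A spread from -0.39 to 0.57.

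The spindle partners of the mitotic kinesins, a list of 16 genes, stood with them. Of the 16 tested, 14 rose and 0 fell, against 7.09% higher and 6.05% lower over all genes, and their median was 0.85 on the log2 scale. RACGAP1, the partner of KIF23, had 603, 516 and 537 with DHT and 232, 205 and 221 in the controls (1.27 ± 0.09; limma adjusted p = 7.4e-06). PRC1, the microtubule bundler that binds KIF4A and KIF14, rose by 1.01, the mitotic kinase CDK1 by 1.37 and its cyclin CCNB1 by 0.99. The kinetochore kinesin CENPE had 104, 84.1 and 82.7 with DHT and 30.6, 54.9 and 25.3 in the controls, a rise of 1.04 ± 0.21 (limma adjusted p = 0.00719). NUMA1 (0.09) and KIFBP, a protein that binds and blocks several kinesins (0.16), did not pass.

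Light chains and adaptors tie cargo kinesins to their loads. Among 18 tested there were 3 that rose and 2 that fell, against 7.09% and 6.05% of all genes, the median being -0.05, and 2 further listed genes were not analysed here. TRAK2, which links KIF5 motors to mitochondria, had 406, 380.2 and 376 with DHT and 268, 229 and 205 in the controls (0.70 ± 0.10; limma adjusted p = 0.00108). MADD, an adaptor of KIF1 motors, rose by 0.51, but had 0.28 averaged over its probe sets (limma adjusted p = 0.0562) and 0.0091 with spike scaling. FYCO1, which links late endosomes and autophagosomes to kinesin, rose by 0.41, but had 0.16 averaged over its probe sets (limma adjusted p = 0.374) and turned to -0.12 with spike scaling. The light chain KLC2, read from a probe set with the cross-hybridisation suffix, fell by 0.38 on the log2 scale and passed in 2 of the 6 fits that left out an array. KIDINS220, a cargo of KIF5, fell by 0.31 in 1 of its 5 probe sets, the one read here (limma adjusted p = 0.0248). KIFAP3, the subunit that joins KIF3A and KIF3B, had -0.33 and did not pass (limma adjusted p = 0.189), while KIF3A rose.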

How the data were processed

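Total RNA of 6 LNCaP cultures was isolated with RNeasy columns and labelled with biotin for Affymetrix arrays, per the labels' protocols. The deposited table holds linear intensity values (signals) computed by MAS5, according to the submitters' processing notes (version not given in the sources used). MAS5 subtracts a mismatch or estimated background, so dim probe sets are noisy. Each array had a mean of 100.03 after trimming 2% at both ends, so no further normalisation was applied, and a change in total mRNA cannot be seen. Groups came from the titles, and 0 columns were left unused.

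The 62 array control probe sets among 54675 were not tested. With the control probe sets counted in, 1801 name several genes and 11777 none, and genes were read from probe sets naming 1 gene. Gene identifiers changed 0 symbols in a table of GRCh38.p14. The lowest 40% by mean log2(signal + 16) were removed (a signal of 17.3), leaving 32768 probe sets and 14269 genes. A gene was its brightest probe set by the mean log2(signal + 16) of the 6 arrays, with those ending in _x_at used only where no other passed. All genes were fitted with limma 3.58.1 in R 4.3.3 (lmFit, eBayes with intensity trend, 4 residual degrees of freedom) on log2(signal + 16), with Benjamini-Hochberg adjustment over genes at 0.05, and once more over probe sets. The procedure was tested on simulated data. The number of arrays limits the precision.

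The kinesin members, their classes and the other lists were chosen with earlier results of these data known, and so were the promoter motifs. Values on each array are given for kinesins that passed and, per class, for the 4 with the smallest adjusted p that did not. In each partner list the 4 genes with the smallest adjusted p are named. CENPE, KIDINS220, KIFAP3, NUMA1, KIFBP, KIF24, KIF2A, KIF5A, KIF1B, KIF13B, KIF9 and TUBB6 were named beyond this rule after their values were seen, and KIF2B to complete its class. Alternatives were pseudocounts of 1 and 64, no limit or one at 60%, quantile normalisation, equal array medians, hybridisation spikes, a replicate block, limma with no trend or with robust variances, averaging the probe sets of each gene, other class membership and each array left out.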

Additional observations from a re-analysis of the deposited data

How the results depend on the processing

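Of 436 values of 26 named kinesins under 11 alternatives and 6 left-out arrays, 381 kept their call, 46 no longer passed, 6 newly passed and 3 changed sign (values that passed in neither fit were not counted as changing sign). KIF14, KIF15, KIF18B, KIF20A, KIF5B and KIFC2 passed in all. With spike scaling 4 kinesins rose and 11 fell (mitotic 4 higher, cargo 0 higher and 8 lower). Other probe sets were then 0 higher and 7 lower, and all genes 140 higher and 7571 lower. The medians were 0.40 for mitotic and -0.47 for cargo kinesins. KIF3A (-0.051), KIF5C (-0.17), KIF21A (-0.41), FYCO1 (-0.12) and TUBA1C (-0.18) changed sign. The median over all genes went from 0.02 to -0.45 with this scaling. The shift differed between genes, and was smaller for the dim KIF25 (0.69 to 0.41) than for KIF5B (-0.78 to -1.32). The mitotic median was 1.05 with a pseudocount of 1 and 0.54 with one of 64, by construction. With equal array medians 1 cargo kinesin, 2 other probe sets and 478 genes were higher (714 lower). Without the intensity trend 1 cargo kinesin rose, other probe sets were 2 higher and 1 lower, and genes 488 higher and 363 lower; with no limit on dim probe sets 2 others were higher. Leaving out an array gave 1 to 3 cargo kinesins higher (1 with DHT replicate 1, with DHT replicate 2 or with control replicate 2 left out), medians of -0.18 (without control replicate 1) to 0.10 (without DHT replicate 2) for cargo kinesins, 0 to 3 other probe sets higher (0 without DHT replicate 1 or control replicate 3, 1 without DHT replicate 3, 2 without DHT replicate 2), 659 to 811 genes higher (659 without DHT replicate 3, 673 without DHT replicate 2) and 548 to 665 lower (548 without control replicate 3). KIF23 and KIF16B passed in none of these fits. Over all genes, same-numbered arrays did not deviate together (r = -0.00601, -0.043 and 0.0182). These values cannot exclude a pairing that touches only some genes. In the mitotic average replicate 1 was the highest array of both groups (0.93 with DHT, 0.20 in the controls). In the cargo average it was highest with DHT (0.0023) and lowest in the controls (-0.025). With the number as a block 11 kinesins rose and 2 fell, KIF18A, KIF16B, DYNLT1 and TUBB2A no longer passing. TUBB2A, TUBA1C and DYNLT1 each lost the call under 5 or 6 of the 11 alternatives. Where no cause is named, it was not tested. The part of low signal in the lost calls of KIF18A, KIF23 and KIF16B was not tested. Counting KIF2A (-0.06) as mitotic left 9 mitotic kinesins higher, but then not all tested members lay above 0. Counting KIF21A and KIF21B as cargo left 3 cargo kinesins higher and 3 lower.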

Other observations

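Tubulins are the subunits of microtubules. Of 15 tested tubulin genes, 2 rose and 3 fell, and the median was -0.02 on the log2 scale, against 0.02 over all genes tested, of which 7.09% rose and 6.05% fell. TUBB, a widely made beta tubulin, had 3033, 2487 and 2334 with DHT and 1576, 1739 and 1827 in the controls, a rise of 0.60 ± 0.10 (SE; limma adjusted p = 0.00215). TUBA1C rose by 0.36 and was read from a probe set with a suffix that warns of cross-hybridisation. TUBB4A had 87.3, 87.3 and 80.3 with DHT and 138, 187 and 219 in the controls, and stood at -0.95 ± 0.15 (limma adjusted p = 0.00193). TUBB2A fell too, at -0.31, but passed in 1 of the 6 fits that left out an array (limma adjusted p between 0.046 and 0.145). TUBB6, a dim gene, also fell, at -0.997 ± 0.296 (limma adjusted p = 0.0466). Its signals were 19.3, 5.73 and 33.9 with DHT and 37.2, 58.1 and 61.2 in the controls. Tubulin genes resemble each other, and a probe set may pick up more than 1 of them.

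Cytoplasmic dynein and dynactin form the motor that walks against most kinesins. Among 26 genes tested there was 1 that rose and 3 that fell, against 7.09% and 6.05% of all genes, the median being -0.03, and 2 further listed genes were not analysed here. BICD1, an adaptor between dynein and its cargo, rose by 0.56 ± 0.09 (limma adjusted p = 0.00224), but had 0.27 averaged over its probe sets (limma adjusted p = 0.0929) and 0.053 with spike scaling. The light chains DYNLL1 and DYNLT1 fell by 0.31 and 0.28 on the log2 scale, and the dynactin subunit DCTN1, read from a probe set with a suffix that warns of cross-hybridisation, by 0.36. With an array left out, DYNLL1 passed in 3 of 6 fits, DCTN1 in 2 and DYNLT1 in 0 (limma adjusted p between 0.0534 and 0.139).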
